A study of Rattus norvegicus with 172 samples.

Results

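The tissue that fills a complete transection gap of the rat spinal cord 3 months after injury was compared with the cord stump just above it. The comparison takes 6 of the 172 arrays of the series: 3 arrays of the lesion gap (the lesioned area) and 3 of the segment rostral to the lesion, all of the untreated lesion control arm on day 90. The 6 were chosen by their labels alone, so no measured value entered the choice. In the study, female adult Wistar rats aged 2 months had the cord cut at a mid-thoracic level, 5 mm of it removed and residual fibres scraped and aspirated away. The lesion control arm received no implant afterwards, and other arms received a chitosan tube with or without NT-3 (neurotrophin-3). Each injured array holds RNA pooled from 4 animals, taken as a segment 5 mm long, and the labels describe the pools as biologically independent. A pool hides the spread between its animals, and the p-values below measure the spread between pools. This spread was estimated jointly over all days and segments of the arm or arms compared, with the normal arrays. A gene that varied more in other groups can therefore fail the test though its 6 arrays lie apart. For reference the text uses 3 arrays of normal cord, the same segments of lesion control rats on day 3, and, at day 90, the gap and rostral segments of rats that carried the tube seeded with NT-3 carriers (NT-3 tube, 3 arrays each).

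After a transection the cavity is first cleared by blood-borne macrophages and then filled by fibroblasts and meningeal cells, which lay down collagen and a laminin-rich basement membrane. Astrocytes border this fibrotic core, while Schwann cells and sensory axons of the nearby nerve roots can grow into it. The stump above the gap keeps its neurons, but axons cut from their cell bodies degenerate there, and phagocytes loaded with myelin debris persist for months.

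Values are log2 RMA expression, so a difference of 1 is a 2-fold change. A gene is called when its Benjamini-Hochberg adjusted p over all 11834 genes tested lay below 0.05. In the gap 3438 genes were called higher (29.1% of those tested) and 3137 lower (26.5%). At least 2-fold, 906 genes were higher (7.66%) and 611 lower (5.16%). The median difference of all genes tested was 0.027. So many genes separated the segments that the list counts below are to be read beside these shares. The lists were chosen with earlier results of these data known, so their counts are a description and no list is called unusual. Of the called genes, 3373 higher and 3089 lower ones had gap and rostral arrays that did not overlap. Called or not, 4254 of the 11834 genes had all gap arrays above all rostral arrays and 3741 had all below. Counts of members that do not overlap are to be read against these. Arrays of a group correlated at 0.9955 to 0.9959 in the stump and 0.9948 to 0.9968 in the gap, with a median SD per gene of 0.104 and 0.087. Differences of 8-fold or more were one-sided: 33 genes were higher and 1, the serotonin receptor Htr2c, was lower. For 22 of the 33 the stump mean lay below 6.55, the level a group mean had to reach for a gene to be tested. Near background the array gives no reliable size, so no fold is given below where a segment's mean lies under that level, and the log2 difference there is only as fitted. Such a gene reached the level in the other segment or in another group, so its call and p-value are a description only.

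The 41 gene lists held 549 distinct genes that could be tested, 272 of them called higher in the gap and 129 lower. Over all genes tested the shares were 29.1% and 26.5%. The plot of list members shows neuronal transmission and central myelin at the low end. Skeletal muscle, collagen, class II and basement membrane genes lie at the high end. In bulk tissue fewer cells of a type and less RNA per cell cannot be told apart, which holds for every cell type named below.

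**Figure D1:**
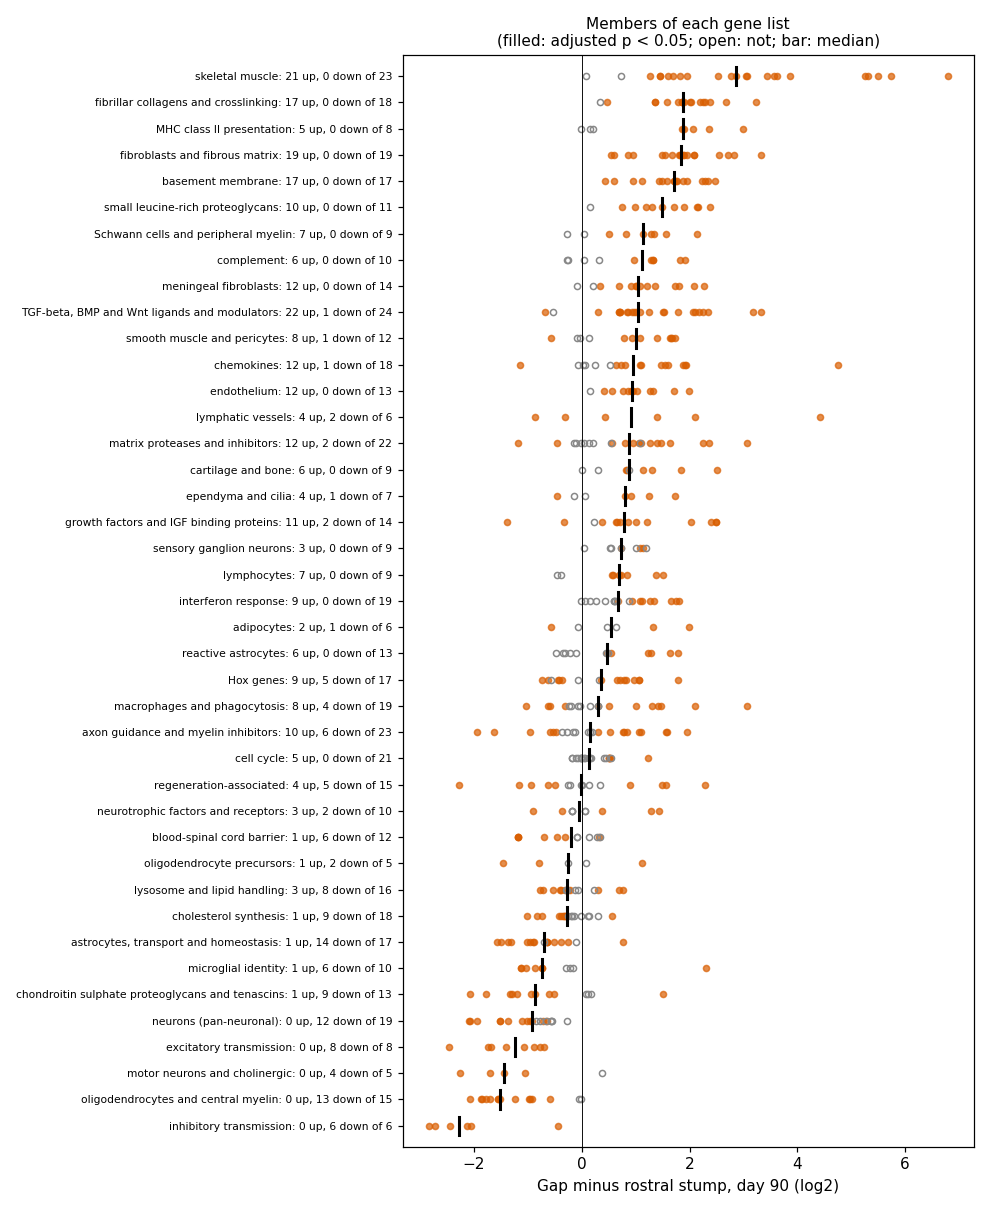
Gap minus rostral difference (log2) of every tested member of the 41 lists, ordered by list median; filled points passed an adjusted p of 0.05, open points did not, bars are medians. Inhibitory transmission has the lowest median (-2.29) and skeletal muscle the highest (2.86).

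Genes of synaptic transmission were much lower in the gap. All 6 tested inhibitory genes were called lower, with a median of -2.29, and so were all 8 excitatory genes, with a median of -1.24. Gad1, which makes GABA, read 10.44, 10.07 and 10.47 in the stump and 7.42, 7.87 and 7.54 in the gap, a 6.57-fold difference (-2.72 ± 0.29 SE, adjusted p = 9.05e-11). Slc32a1, the vesicular transporter for GABA and glycine, read 8.73, 8.25 and 8.83 against 6.16, 6.34 and 5.96 (-2.45 ± 0.29, adjusted p = 9.8e-10). For both genes all gap arrays lay below all rostral arrays. The gap means of 4 of the 6 inhibitory genes, Slc32a1 among them, lay below 6.55. The GABA-A receptor subunit Gabra5 was lower as well (-2.84 ± 0.24) and the chloride transporter Slc12a5, which keeps GABA inhibitory, differed by -2.12 ± 0.33. Among excitatory genes the AMPA receptor subunit Gria3 read 9.65, 9.27 and 9.47 in the stump and 7.02, 6.94 and 7.01 in the gap. Slc17a6, the glutamate transporter of synaptic vesicles, differed by -1.75 ± 0.32. Htr2c read 11.22, 10.86 and 11.14 in the stump against 7.81, 8.17 and 7.96 in the gap, an 8.53-fold difference (adjusted p = 5.9e-07). The other genes with the largest falls were also of neuronal kind: Olfm3 (-2.98), Ankrd34b (-2.46), the glycine receptor subunit Glra2 (-2.44), Lamp5 (-2.39), Spock3 (-2.37), the sodium channel Scn1a (-2.34) and the potassium channel Kcnd2 (-2.33).

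Motor neuron genes were lower too, with 4 of 5 called and a median of -1.45. Chat, the acetylcholine-making enzyme, read 7.12, 6.87 and 7.32 in the stump and 6.04, 5.45 and 5.47 in the gap (-1.45 ± 0.14, adjusted p = 1.06e-11). Its gap mean lay below 6.55, so the p-value is a description only. Slc5a7, the choline transporter, differed by -2.26 ± 0.27 and Chodl by -1.70 ± 0.26. The exception was Prph, peripherin, a filament of peripheral and motor axons, which was not called (0.37 ± 0.41) and read 11.97, 10.57 and 11.59 in the gap.

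Of 19 genes shared by all neurons 12 were called lower and none higher, with a median of -0.92, and 16 had all gap arrays below all rostral arrays. The most reduced were the filament gene Ina (-2.10 ± 0.25), the calcium sensor Vsnl1 (-2.08 ± 0.51), Chga (-1.95 ± 0.25), Scg2 (-1.52 ± 0.41) and Map2 (-1.51 ± 0.33), the last a protein of dendrites. The 7 members that were not called all had negative differences. Nefm, the medium neurofilament, read 13.53, 13.50 and 13.54 in the stump and 13.27, 12.55 and 13.10 in the gap (-0.55 ± 0.42, adjusted p = 0.276). Stmn2, a tubulin regulator of growing axons, read 12.38, 12.40 and 12.55 against 12.36, 11.22 and 12.05 (adjusted p = 0.291). For both genes all gap arrays lay below all rostral arrays, by little, yet neither difference passed the test, and gap replicate 2 was the lowest array. The others not called were Nefl, Nefh, Uchl1, Elavl4 and Tubb3, at -0.84, -0.78, -0.66, -0.57 and -0.27. Gap replicate 2 held the lowest gap value of 15 of the 19 genes and gap replicate 1 the highest of 18. Rbfox3 (-1.02 ± 0.43, adjusted p = 0.0386) and Thy1 (-0.65 ± 0.21) were called, but leaving out 1 array took their adjusted p to 0.143 and 0.0843 at most.

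Genes of sensory ganglion neurons were the neuronal list that did not lie below the stump. Of 9 tested, 3 were called higher and none lower, with a median of 0.73. Avil, advillin, read 8.72, 10.13 and 10.08 in the stump, 11.43, 10.20 and 10.86 in the gap and 7.01 on average in normal cord (1.19 ± 0.58, adjusted p = 0.0791). Calca, which encodes the pain-fibre peptide CGRP, read 10.78, 11.39 and 11.41 in the stump and 12.48, 10.95 and 11.79 in the gap (0.55 ± 0.55, adjusted p = 0.408). The groups overlapped for Calca, while for Avil the lowest gap array lay just above the highest rostral one. Gap replicate 2 was the lowest gap array and rostral replicate 1 the lowest rostral array for all 9 genes. The 3 called genes, the heat receptor Trpv1 (1.13 ± 0.41) and the sodium channels Scn11a (1.09 ± 0.48) and Scn10a (0.73 ± 0.23), each lost the call without 1 array, at adjusted p values up to 0.116, 0.243 and 0.0886. Across the arrays left out in turn the count called ranged from 0 to 4. Against normal cord the same list was higher in both segments, as given further on.

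**Figure D2:**
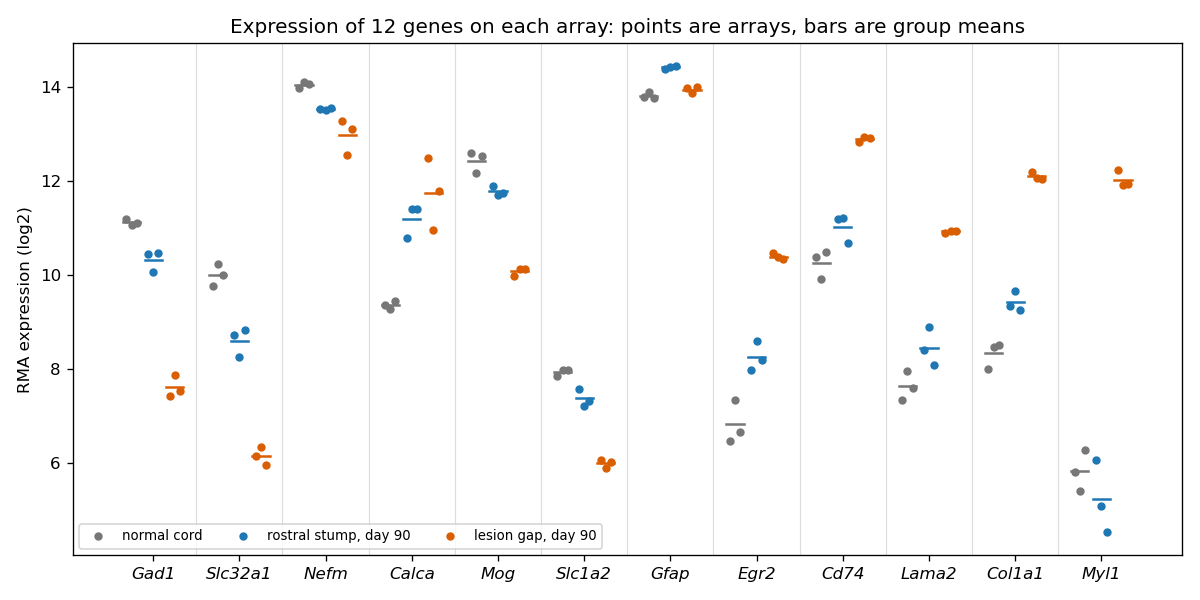
RMA expression (log2) of 12 genes on each array of normal cord, rostral stump and lesion gap at day 90; points are arrays and bars group means. Gad1, Slc32a1, Mog and Slc1a2 are lowest in the gap, Egr2, Cd74, Lama2, Col1a1 and Myl1 highest, and the Calca arrays of gap and stump overlap.

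Central myelin was low in the gap and peripheral myelin high. Of 15 oligodendrocyte genes 13 were called lower and none higher (median -1.51). Mog, a protein of the outer surface of central myelin, read 11.89, 11.70 and 11.73 in the stump and 9.98, 10.12 and 10.13 in the gap (-1.70 ± 0.30, adjusted p = 4.92e-06). Ermn (-2.07 ± 0.36), the myelin lipid enzyme Ugt8 (-1.86 ± 0.34), Opalin (-1.85 ± 0.30) and Hapln2 (-1.78 ± 0.25), which sits at nodes of Ranvier, were lower by more. Mbp, shared by central and peripheral myelin, differed by only -0.59 ± 0.11. Cldn11 (-0.05 ± 0.16) and Aspa (-0.02 ± 0.16) were not called. Precursor genes went both ways: Lhfpl3 was lower (-1.46 ± 0.25), Pcdh15 lower (-0.80 ± 0.13) and Pdgfra, which fibroblasts also express, higher (1.13 ± 0.12).

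Among 9 Schwann cell genes 7 were called higher and none lower, with a median of 1.13. Egr2, the transcription factor that switches on peripheral myelin, read 7.98, 8.60 and 8.19 in the stump and 10.46, 10.38 and 10.33 in the gap, with 6.83 on average in normal cord. The difference was 4.39-fold (2.13 ± 0.20, adjusted p = 3.85e-12). Dhh, a signal from Schwann cells to the nerve sheath, was higher by 1.57 ± 0.19, Prx, periaxin, by 1.34 ± 0.25, the low-affinity neurotrophin receptor Ngfr by 1.29 ± 0.33 and the junction protein Cldn19 by 1.13 ± 0.17. Gap and stump did not overlap for any of these 5 genes. Pmp2 (-0.27 ± 0.20) and Erbb3 (0.03 ± 0.13) were not called.

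The lists of astrocyte genes went different ways. Of 17 genes of transport and homeostasis 14 were called lower and 1 higher (median -0.71). Slc1a2, the main glutamate transporter, read 7.58, 7.22 and 7.33 in the stump and 6.07, 5.90 and 6.03 in the gap (-1.38 ± 0.17, adjusted p = 3.22e-09), with a gap mean below 6.55. The serine transporter Slc7a10 (-1.58 ± 0.16), Agt (-1.49 ± 0.25), Slc25a18 (-1.31 ± 0.19) and Gpr37l1 (-1.02 ± 0.26) followed it, and the connexin Gjb6 was the 1 called higher (0.77 ± 0.20). The water channel Aqp4 was not called (-0.71 ± 0.40, adjusted p = 0.13).

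The 13 reactive astrocyte genes held 6 called higher and none lower (median 0.46), and the 6 were not the filament gene that defines the state. All gap arrays lay above all rostral arrays for 7 of the 13 and below them for 5. Gfap read 14.37, 14.42 and 14.43 in the stump, 13.97, 13.86 and 13.98 in the gap and 13.81 on average in normal cord (-0.47 ± 0.28, adjusted p = 0.155). Its gap arrays all lay below the rostral ones, yet the difference did not pass the test, whose spread comes from all groups of the fit. Higher in the gap were Steap4 (1.79 ± 0.26), the protease inhibitor Timp1 (1.63 ± 0.21), the complement inhibitor Serping1 (1.28 ± 0.13), Lcn2 (1.23 ± 0.45, adjusted p up to 0.0572 without 1 array) and Nes (0.54 ± 0.19, up to 0.0832). Vim was also higher (0.46 ± 0.10). Several of these are made by fibroblasts and macrophages as well, and which cells gave the signal was not tested. Cp, ceruloplasmin, stood at 11.85 to 11.90 in the stump and 11.74 to 11.79 in the gap.

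Chondroitin sulphate proteoglycans are matrix molecules that restrain axon growth in glial scars. Their list also holds tenascins, link proteins and enzymes of chondroitin synthesis, so its counts are not of proteoglycans alone. Of its 13 tested genes 9 were called lower in the gap and 1 higher (median -0.87). The perineuronal link protein Hapln4 differed by -2.07 ± 0.24, Cspg5 by -1.33 ± 0.19, tenascin-R (Tnr) by -1.30 ± 0.24 and neurocan (Ncan) by -1.21 ± 0.32. Ncan read 7.14, 7.01 and 6.97 in the stump and 5.83, 5.86 and 5.81 in the gap, against 5.88 in normal cord. Against normal cord Ncan differed by -0.05 in the gap and by 1.16 in the stump. Tenascin-C (Tnc), a product of fibroblasts and reactive glia, was the 1 of this list higher, at 6.46, 6.90 and 6.67 in the stump and 8.16, 8.29 and 8.11 in the gap (1.51 ± 0.27, adjusted p = 6.57e-06). Tenascin-N (Tnn), a member of the fibroblast list, was called higher too (1.48 ± 0.44, adjusted p = 0.00425), with all 6 arrays below 6.55.

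Phagocyte genes were high in both segments, with a different make-up in each. Microglial identity genes were lower in the gap, with 6 of 10 called lower and 1 higher (median -0.74). P2ry12, the purine receptor of resident microglia, read 11.07, 11.01 and 10.86 in the stump and 9.85, 9.82 and 9.90 in the gap (-1.12 ± 0.20, adjusted p = 7.95e-06). Sall1 (-1.13 ± 0.24), the fructose transporter Slc2a5 (-1.04 ± 0.13) and Gpr34 (-0.87 ± 0.19) were lower as well. Olfml3 went against its list, at 9.44, 9.50 and 9.08 in the stump and 11.58, 11.77 and 11.60 in the gap (2.31 ± 0.22), and Tmem119 (-0.16 ± 0.15) and Csf1r (-0.22 ± 0.11) were not called.

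Of 19 macrophage genes 8 were called higher in the gap and 4 lower (median 0.30). Those higher included genes of tissue-resident and perivascular macrophages: Lyve1 (2.11 ± 0.22), the scavenger receptor Cd163 (1.47 ± 0.34), the mannose receptor Mrc1 (1.42 ± 0.22) and F13a1 (1.31 ± 0.32). Mmp12, macrophage elastase, read 7.21, 8.43 and 7.71 in the stump and 10.70, 10.85 and 10.98 in the gap, an 8.34-fold difference (adjusted p = 6.64e-08). Lower were osteopontin (Spp1, -1.04 ± 0.18), Itgam (-0.59 ± 0.14), Lgals3 (-0.31 ± 0.10) and Arg1 (-0.62 ± 0.23), the last 2 with adjusted p values up to 0.0582 and 0.0996 without 1 array. Genes of debris-filled phagocytes stood at like levels, with Gpnmb at 14.17 to 14.27 in the stump and 13.88 to 14.07 in the gap (-0.23 ± 0.12, adjusted p = 0.0928). Cd68 (-0.07 ± 0.23) and Clec7a (-0.20 ± 0.19) were not called.

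Lysosome and lipid genes leaned to the stump, with 8 of 16 called lower in the gap and 3 higher (median -0.26). The cholesterol exporter Abcg1 differed by -0.77 ± 0.14, cathepsin D (Ctsd) by -0.71 ± 0.08 and cathepsin S (Ctss) by -0.54 ± 0.07, whereas the lipase Lpl (0.77 ± 0.27) and cathepsin K (Ctsk, 0.69 ± 0.20) were higher. Cholesterol synthesis genes differed little between the segments, with 9 of 18 called lower, 1 higher and a median of -0.27. Dhcr7, the last enzyme of the path, showed the largest difference (-1.02 ± 0.12).

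Genes of the MHC class II chains, by which macrophages, dendritic and B cells show antigen to T helper cells, were higher in the gap. Of 8 list genes 5 were called higher and none lower (median 1.88). Cd74, the invariant chain, read 11.19, 11.21 and 10.68 in the stump and 12.83, 12.93 and 12.91 in the gap (1.86 ± 0.23, adjusted p = 3e-09). RT1-Ba, an alpha chain, read 9.57, 9.76 and 9.33 against 11.54, 11.60 and 11.69 (2.06 ± 0.25). For both genes the gap arrays lay close together and wholly above the stump. RT1-Db1, a beta chain, was higher by 5.13-fold (2.36 ± 0.26) and RT1-Da by 1.90 ± 0.24. RT1-Bb differed by 2.99 ± 0.83 from a stump spread of 4.75, 7.49 and 6.71, whose mean lay below 6.55. The loading chains RT1-DMa (0.21 ± 0.13) and RT1-DMb (0.15 ± 0.11) and the class II master regulator Ciita (-0.02 ± 0.10) were not called. Chain genes of this region are alike in sequence, and signal that crossed between their probe sets was not tested.

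The 4 chain genes were all called higher, as was Cd74. Stretches of the promoters of the 4 are shown, from RefSeq on build GRCr8, and a part of the promoter in these differences was not tested. Class II promoters are known for a shared Y box, an inverted CCAAT element bound by the factor NF-Y, here searched as CTGATTGG and its other strand CCAATCAG. Each stretch is 80 bases on the gene's strand, 5′ to 3′, with the Y box in capitals. The stretches lie upstream of the start of RT1-Ba (chr20:4576951-4577030, plus strand), RT1-Bb (chr20:4604163-4604242, minus), RT1-Da (chr20:4515303-4515382, plus) and RT1-Db1 (chr20:4560226-4560305, minus).
RT1-Ba: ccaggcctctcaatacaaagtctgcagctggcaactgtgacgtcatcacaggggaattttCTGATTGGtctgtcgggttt
RT1-Bb: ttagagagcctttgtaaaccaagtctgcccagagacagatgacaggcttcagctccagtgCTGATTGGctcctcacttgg
RT1-Da: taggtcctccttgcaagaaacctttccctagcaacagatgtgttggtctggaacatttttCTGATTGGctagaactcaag
RT1-Db1: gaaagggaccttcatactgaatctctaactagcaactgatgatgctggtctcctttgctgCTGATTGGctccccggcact
The element begins 46, 64, 52 and 83 bases before the start of RT1-Ba, RT1-Bb, RT1-Da and RT1-Db1. It was found in these 4 of the 6 list members that have a window, and in 1068 of 33469 promoter windows in all (3.19%), over the 250 bases before each start. The windows of Cd74 and RT1-DMa do not hold these letters. A match describes the sequence and is no evidence of binding.

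Other immune genes were mostly higher in the gap. Of 9 lymphocyte genes 7 were called higher and none lower (median 0.69), among them the T cell receptor chains Cd3g (1.38 ± 0.22), Cd3d (0.84 ± 0.21) and Cd3e (0.73 ± 0.16), the kinase Lck (0.58 ± 0.10) and the antibody joining chain Jchain (1.51 ± 0.27). The stump mean lay below 6.55 for 6 of the 9, and both means for 3, so these counts are a description only. Jchain read 5.89, 6.26 and 6.08 in the stump and 7.62, 7.07 and 8.07 in the gap. The cytotoxic chains Cd8a (-0.38 ± 0.33) and Cd8b (-0.47 ± 0.26) were not called.

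Of 18 chemokines 12 were called higher and 1 lower (median 0.95). Ccl21, which guides dendritic and T cells to lymphatic vessels, read 6.74, 8.26 and 6.50 in the stump and 11.89, 12.07 and 11.83 in the gap, a 27.2-fold difference (4.76 ± 0.38, adjusted p = 4.81e-14). The stromal factor Cxcl12 (1.92 ± 0.19), the neutrophil attractant Cxcl1 (1.94 ± 0.44), the monocyte attractant Ccl2 (1.88 ± 0.30) and the B cell attractant Cxcl13 (1.60 ± 0.45) were higher too. Cxcl14 was lower (-1.15 ± 0.27).

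Complement was higher in part: 6 of 10 genes were called higher and none lower (median 1.13). The proteases C1r (1.91 ± 0.16) and C1s (1.83 ± 0.16), which fibroblasts make, rose, as did C5ar1, C6, Cfd and Serping1. The recognition chains C1qa (-0.25 ± 0.13), C1qb (-0.28 ± 0.16) and C1qc (0.32 ± 0.17), made by microglia and macrophages, were not called. Of 19 interferon-response genes 9 were called higher and none lower (7 to 8 without 1 array, median 0.67), and 16 of the 19 had all gap arrays above all rostral arrays. Bst2 (1.81 ± 0.27), the immunoproteasome subunit Psmb9 (1.76 ± 0.21), Ifitm1 (1.66 ± 0.29), Irf1 (1.34 ± 0.16) and Ifitm3 (1.26 ± 0.16) led the list, while Mx1 (0.87 ± 0.46), Oas1a (0.60 ± 0.33) and Irf7 (0.61 ± 0.33) were not called.

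Collagen and fibrous matrix genes were higher in the gap with few exceptions. Of 18 genes of fibrillar collagens and their crosslinking 17 were called higher and none lower (median 1.88). Col1a1, the main chain of type I collagen, read 9.35, 9.65 and 9.25 in the stump, 12.18, 12.06 and 12.04 in the gap and 8.33 on average in normal cord (2.68 ± 0.25, adjusted p = 4.85e-12). Col14a1 was higher by 9.43-fold (3.24 ± 0.25), Col6a2 by 2.38 ± 0.25, Col6a3 by 2.29 ± 0.23 and the crosslinking enzyme Loxl1 by 2.24 ± 0.24. Only Col11a1 was not called (0.33 ± 0.17).

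All 19 genes of fibroblasts and their matrix were called higher, with a median of 1.85, and all 3 gap arrays lay above all 3 rostral arrays for each. Postn, periostin, read 6.71, 7.28 and 6.19 in the stump and 10.11, 10.01 and 10.06 in the gap, a 10.1-fold difference (adjusted p = 9.73e-13). Clec3b (2.82 ± 0.26), dermatopontin (Dpt, 2.71 ± 0.26), the fibroblast activation protein Fap (2.55 ± 0.25) and fibrillin (Fbn1, 2.09 ± 0.19) came next. Rostral replicate 2 gave the highest rostral value for 15 of these 19 genes. Among small leucine-rich proteoglycans, which space collagen fibrils, 10 of 11 were called higher (median 1.49). The largest differences were those of Ecm2 (2.37 ± 0.20), biglycan (Bgn, 2.16 ± 0.18), asporin (Aspn, 2.14 ± 0.34), Prelp (1.89 ± 0.17) and Podn (1.72 ± 0.13), and Chad was not called (0.16 ± 0.20).

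Basement membrane genes were higher without exception, with 17 of 17 called and a median of 1.71. Lama2, the laminin chain of Schwann cell and muscle basement membranes, read 8.40, 8.89 and 8.08 in the stump and 10.89, 10.94 and 10.94 in the gap (2.47 ± 0.18, adjusted p = 5.07e-15). Lamb1 (2.34 ± 0.20), the type IV collagen chain Col4a1 (2.29 ± 0.20), Lama4 (2.22 ± 0.17) and nidogen Nid2 (1.96 ± 0.18) had the next largest differences. Agrin (Agrn) had the smallest (0.44 ± 0.12). The gap arrays of Lama2 lay close together, and the stump arrays spread more widely, with replicate 2 the highest.

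Meningeal fibroblast genes were higher as well, with 12 of 14 called and none lower (median 1.04). The transporter Slc47a1 read 9.27, 9.68 and 8.99 in the stump, 11.37, 11.77 and 11.60 in the gap and 6.75 on average in normal cord (2.27 ± 0.41, adjusted p = 7.59e-06). The retinoic acid binding protein Crabp2 (2.08 ± 0.27), the transcription factor Foxc1 (1.80 ± 0.21), the connexin Gjb2 (1.73 ± 0.18) and the proline transporter Slc6a20a (1.35 ± 0.23) were higher too. Ptgds, prostaglandin D synthase, stood near the top of the scale in both segments (0.21 ± 0.14, not called). Meningeal genes were also above normal cord in the stump, where 12 of 14 were called higher.

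Signalling genes of the transforming growth factor beta, BMP and Wnt families followed the matrix. Of 24 ligands and modulators 22 were called higher and 1 lower (median 1.04). Tgfb3 read 8.08, 8.28 and 7.91 in the stump and 10.26, 10.46 and 10.32 in the gap (2.26 ± 0.14, adjusted p = 2e-17). The BMP family member Gdf10 read 7.94, 8.39 and 7.46 against 11.29, 11.16 and 11.34 (3.33 ± 0.31). For both genes all gap arrays lay above all rostral arrays. The secreted Wnt inhibitors Sfrp2 (3.18 ± 0.33), Sfrp4 (2.35 ± 0.28) and Sfrp1 (2.18 ± 0.21) were higher, Tgfb1 differed by 0.93 ± 0.16 and Tgfb2 by 0.30 ± 0.13 (adjusted p up to 0.131 without 1 array). Inhbb was lower (-0.68 ± 0.16).

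Of 14 growth factors and IGF binding proteins 11 were called higher and 2 lower (median 0.78). Vegfc, the growth factor of lymphatic vessels, read 6.34, 6.72 and 6.25 in the stump and 8.92, 8.98 and 8.90 in the gap (2.50 ± 0.14, adjusted p = 3.36e-18). Its stump mean lay below 6.55, so the p-value is a description only. Igfbp6 (2.49 ± 0.25), Igfbp3 (2.39 ± 0.32) and Igfbp5 (2.03 ± 0.28) were higher by similar amounts. Vegfa was lower (-0.33 ± 0.11) and so was Fgf9, a factor of neurons (-1.38 ± 0.25).

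Matrix proteases and inhibitors were higher in 12 of 22 cases and lower in 2 (median 0.88). Besides Mmp12, the gelatinase Mmp2 (2.37 ± 0.19), Adamts1 (2.25 ± 0.20), Timp1 (1.63 ± 0.21) and Mmp23 (1.46 ± 0.14) were higher, and Adamts4, which cleaves aggrecan and brevican, was lower (-1.18 ± 0.11). Mmp3 was called (1.06 ± 0.39) but spread over 6.68, 5.19 and 5.79 in the gap, with an adjusted p up to 0.195 without 1 array. Both of its segment means lay below 6.55.

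Axon guidance genes went both ways, with 10 of 23 called higher and 6 lower (median 0.16). Higher were the guidance cue netrin-1 (Ntn1, 1.95 ± 0.18), the receptor Nrp1 (1.58 ± 0.14) and the repellent Slit2 (1.57 ± 0.12), as were Sema3c (1.10 ± 0.17) and Sema3b (1.06 ± 0.22). Slit2 read 8.44, 8.52 and 8.30 in the stump and 9.78, 10.21 and 9.97 in the gap. Lower were genes that oligodendrocytes express: Sema4d (-1.94 ± 0.23), Omg (-1.63 ± 0.26) and Rtn4, which encodes Nogo (-0.47 ± 0.07).

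Of 10 neurotrophic factors and receptors 3 were called higher and 2 lower (median -0.06). Gfra3, the artemin receptor of pain neurons, read 6.51, 6.98 and 6.97 in the stump and 8.46, 7.85 and 8.44 in the gap (1.43 ± 0.25, adjusted p = 4.91e-06). Ngfr and Gfra2 (0.38 ± 0.10) were also higher. The BDNF receptor Ntrk2 (-0.91 ± 0.23) and Bdnf (-0.37 ± 0.15, adjusted p up to 0.23 without 1 array) were lower, and the NT-3 receptor Ntrk3 was not called (-0.18 ± 0.21).

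Regeneration-associated genes showed no common direction, with 4 of 15 called higher, 5 lower and a median of -0.02. Jun read 9.92, 10.26 and 10.06 in the stump and 11.67, 11.66 and 11.62 in the gap (1.57 ± 0.13, adjusted p = 2.42e-13). Atf3 (1.48 ± 0.20) and Klf6 (0.90 ± 0.17) were higher with it, and the neuropeptide Npy read 10.11, 10.03 and 10.11 in the stump against 12.53, 12.39 and 12.20 in the gap (2.29 ± 0.34). The neuropeptides Vip (-2.29 ± 0.29) and Gal (-1.16 ± 0.31) were lower. The growth-cone protein Gap43 read 11.48, 11.68 and 11.89 in the stump and 11.92, 11.54 and 11.54 in the gap, which overlapped (-0.02 ± 0.16).

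The largest log2 differences in the table were those of skeletal muscle genes, most of which were near background in the stump. Of 23 muscle genes 21 were called higher and none lower (median 2.86), and on the list mean the gap arrays read 9.20, 8.98 and 9.02, the stump 6.20, 5.98 and 5.95 and normal cord 6.24 to 6.34. The stump mean lay below 6.55 for 19 of the 23 and the gap mean for 1, so most could be tested through the gap itself or other groups where they were higher. Their counts, median and p-values are a description only. Myl1, a myosin light chain of fast fibres, read 6.07, 5.09 and 4.54 in the stump and 12.22, 11.91 and 11.94 in the gap (6.79 ± 0.73, adjusted p = 1.22e-10). Mb, myoglobin, read 5.27, 5.07 and 4.87 against 10.43, 10.34 and 10.39 (5.32 ± 0.59). All 3 gap arrays carried the signal at like levels for both genes. Myl11 (5.74 ± 0.76), Myh2 (5.51 ± 0.64) and Acta1 (5.26 ± 0.68) complete the leading members, and Car3 (4.55 ± 0.42), Myoz2 (4.09 ± 0.60), Myh7 (3.86 ± 0.57) and Klhl41 (3.83 ± 0.65), all known from muscle, were among the 12 largest differences in the table. The 12th was the matricellular gene Ccn1 (3.76 ± 0.42). The 2 members not called were Myh1 (0.08 ± 0.17) and Myog (0.72 ± 0.49). The sources used here do not say whether muscle beside the cord was taken with the gap segment. Genes that muscle tissue also expresses, such as Lama2, Des and those of vessels and connective tissue, were measured in the same RNA, and the part of muscle RNA in their differences was not tested.

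Vessel genes were higher outside the barrier set. Of 13 endothelial genes 12 were called higher and none lower (median 0.94), led by Ecscr (1.98 ± 0.21) and Emcn (1.71 ± 0.12). Emcn, endomucin of veins and capillaries, read 8.62, 8.86 and 8.64 in the stump and 10.51, 10.28 and 10.47 in the gap. Vwf (1.32 ± 0.24), the fenestral protein Plvap (1.27 ± 0.18) and Pecam1 (1.03 ± 0.13) followed. Of 12 blood-spinal cord barrier genes 6 were called lower and 1 higher (median -0.21): the transferrin receptor Tfrc (-1.19 ± 0.15), the lipid transporter Mfsd2a (-1.18 ± 0.19), Slco1c1 (-1.18 ± 0.34), Slc16a1 (-0.70 ± 0.12) and Slc7a5 (-0.46 ± 0.12) were the most reduced. The junction protein Cldn5 was not called (0.14 ± 0.19).

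Smooth muscle and pericyte genes were higher in 8 of 12 cases and lower in 1 (median 1.01), with Abcc9 (1.73 ± 0.14), Tagln (1.66 ± 0.19), Cnn1 (1.65 ± 0.28) and Rgs5 (1.39 ± 0.16). Des, desmin, was higher by 1.67 ± 0.43, and skeletal muscle expresses it as well. Of 6 lymphatic genes 4 were called higher and 2 lower (median 0.92). The 4 were Mmrn1, Lyve1, Ackr4 and Reln, and Lyve1 is also counted in the macrophage list above. Mmrn1, a protein of lymphatic endothelium, read 4.34, 6.28 and 4.20 in the stump and 9.30, 9.42 and 9.39 in the gap (4.43 ± 0.41, adjusted p = 3.29e-12), with all stump arrays below 6.55. Ackr4, which removes Ccl21 from tissue, was higher by 1.40 ± 0.14, while Prox1 (-0.88 ± 0.14) and Pdpn (-0.31 ± 0.12, adjusted p up to 0.11 without 1 array), which glia also express, were lower. Rostral replicate 2 was the highest rostral array for all 6 lymphatic genes.

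The remaining lists were small or mixed. Of 7 ependymal and ciliary genes 4 were called higher and 1, Tekt1, lower (-0.45 ± 0.19, adjusted p up to 0.254 without 1 array), with a median of 0.81, and gap replicate 2 was the highest gap array for 6 of them. Dynlrb2, a dynein chain of cilia, read 8.02, 8.14 and 8.23 in the stump and 8.94, 10.02 and 9.17 in the gap, and Tekt2 differed by 1.74 ± 0.21. The ciliary regulator Foxj1 was not called (0.06 ± 0.10). Of 6 adipocyte genes 2 were called higher, Fabp4 (1.99 ± 0.41) and Cfd (1.33 ± 0.28), and Plin4 was lower (-0.57 ± 0.18), while the defining marker Adipoq stayed at 4.92 to 5.39 in the gap (0.63 ± 0.32, not called). Of 9 cartilage and bone genes 6 were called higher, including Ibsp (2.50 ± 0.45), Phex (1.84 ± 0.16), Comp (1.30 ± 0.31), Cnmd (1.13 ± 0.27) and Col2a1 (0.84 ± 0.31, adjusted p up to 0.0849 without 1 array), with the median at 0.88, but both segment means lay below 6.55 for 6 of the 9.

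Cell cycle genes showed small differences on day 90, with 5 of 21 called higher and none lower (median 0.14), against 29.1% higher over all genes tested. The stump mean lay below 6.55 for 11 of the 21, and both means for 6. Differences near background are compressed, so these counts and the median are a description only. The largest difference, that of Aurkb (1.22 ± 0.25), rested on gap values of 6.82, 8.27 and 7.80. Mki67, the usual mark of dividing cells, read 6.15, 6.40 and 6.21 in the stump and 6.68, 6.76 and 6.69 in the gap (adjusted p = 0.154). Of 17 Hox genes, which record position along the body axis, 9 were called higher and 5 lower (median 0.35). Hoxc5 read 7.74, 8.14 and 8.12 in the stump and 9.53, 10.11 and 9.71 in the gap (1.78 ± 0.17), with Hoxa7 (1.07 ± 0.22), Hoxc4 (1.06 ± 0.10), Hoxa5 (0.97 ± 0.18) and Hoxc8 (0.83 ± 0.17) behind it. Hoxd3 (-0.73 ± 0.17) and Hoxb6 (-0.63 ± 0.10) were lower.

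Each segment was also compared with normal cord. Both comparisons share the normal arrays, so only their own values are given. The labels give the normal rats an age of 2 months and no number of animals per array. Rats sampled on day 90 were 2 months old at surgery, so age may differ along with injury. The part of age in these comparisons was not tested. Against normal cord 4071 genes were higher in the gap (34.4%) and 4142 lower (35%). In the stump 2602 were higher (22%) and 3262 lower (27.6%). The neuronal list was lower in both, with 18 of 19 called in the gap (median -1.58) and 8 of 19 in the stump (median -0.69). The inhibitory list was called lower in 6 of 6 genes in the gap (median -3.53) and 5 of 6 in the stump (median -0.97). Gad1 averaged 11.12 in normal cord.

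Several groups were above normal cord on both sides of the border. Of 19 macrophage genes 17 were called higher and 1 lower in each segment, with medians of 2.70 in the gap and 2.33 in the stump. Gpnmb was higher by 4.88 in the gap and by 5.12 in the stump, and Cd68 by 4.65 and 4.72. Sensory ganglion genes were called higher in 8 of 9 cases in the gap (median 2.27) and 6 of 9 in the stump (median 1.36). Avil differed from normal cord by 3.82 and 2.64. Microglial genes were called higher in 9 of 10 cases in the stump but 5 of 10 in the gap, with 1 lower there. Cholesterol synthesis genes lay below normal cord: 18 of 18 genes were called lower in the gap (median -1.65) and 17 of 18 in the stump (median -1.31), with the desaturase Scd at -2.80 and -2.61.

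The matrix separated the segments in size. Fibrillar collagen genes were called higher in 18 of 18 cases in the gap (median 3.50) and 15 of 18 in the stump (median 1.19). Skeletal muscle genes were called higher in 20 of 23 cases in the gap (median 2.67) and in none in the stump, where 2 were lower (median -0.11). Schwann cell genes were called higher in 7 of 9 cases in the gap (median 1.35) and 3 of 9 in the stump (median 0.34).

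How the border between gap and stump changed with time was tested as the difference of differences, day 90 against day 3, in the lesion control arm. This difference was higher on day 90 for 2524 genes (21.3%) and lower for 2377 (20.1%). The neuronal list stood at a median gap minus rostral of -2.96 on day 3 and -0.92 on day 90, and 15 of 19 genes were called higher in the difference. Nefm averaged 13.33 in the stump and 9.35 in the gap on day 3, a gap minus rostral of -3.98, against -0.55 on day 90 (change 3.43 ± 0.60, adjusted p = 9.85e-06). Stmn2 moved from -4.04 to -0.57 in the same way. Inhibitory genes did not share this: the median was -2.69 on day 3, and 1 of 6 was called higher. Gad1 stood at -1.93 on day 3 and -2.72 on day 90 (change -0.79 ± 0.41, adjusted p = 0.117). Of the 8 excitatory genes none was called in either direction.

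Peripheral and meningeal genes crossed from below the stump to above it. Schwann cell genes had a median of -0.80 on day 3 and 1.13 on day 90, with 8 of 9 called higher in the difference, and meningeal genes went from -1.14 to 1.04, with 11 of 14 called higher. The basement membrane median was 0.79 on day 3 (10 of 17 called higher in the difference). Lama2 showed 0.14 on day 3 against 2.47 on day 90 (change 2.33 ± 0.26). Fibrillar collagens were already apart on day 3 at a median of 2.03, with 1 of 18 called higher in the difference and 4 lower. Col1a1 averaged 10.65 in the stump and 13.27 in the gap on day 3, and its change by day 90 was 0.06 ± 0.36. Cell cycle genes had medians of 1.09 on day 3 and 0.14 on day 90, with 14 of 21 called lower in the difference, and 13 of 19 macrophage and 13 of 16 lysosome genes were called lower. Arg1, an enzyme of early wound macrophages, stood at 2.74 on day 3 and -0.62 on day 90 (change -3.36 ± 0.32).

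The plot of list medians by day adds the sampling times in between, as a description with no test. Central myelin ran through -2.24, -2.47, -1.99, -2.01, -1.95 and -1.51 on days 3, 10, 20, 30, 60 and 90. The class II list stood at 0.56, 0.71, 0.48, 1.34, 0.97 and 1.88. The muscle list stood at 1.73, 1.51, 3.05, 1.69, 2.89 and 2.86, without an even course.

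**Figure D3:**
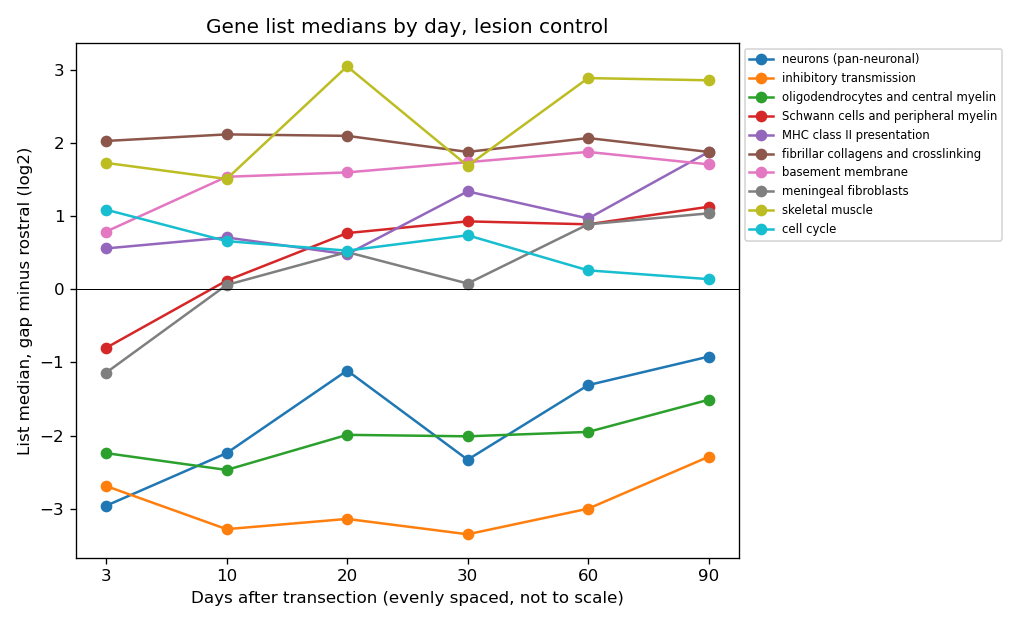
Median gap minus rostral difference (log2) of 10 gene lists on each sampling day of the lesion control arm; days are evenly spaced, not to scale, and no error is drawn. Schwann cell and meningeal lists start below 0 on day 3 (-0.80 and -1.14) and end above it on day 90 (1.13 and 1.04), while fibrillar collagens stay between 1.88 and 2.12.

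The same border was measured on other animals in the NT-3 tube arm, whose arrays are all separate from those of lesion control. There 4285 of 11847 genes tested were called higher in the gap (36.2%) and 3468 lower (29.3%). Of the 876 genes called at least 2-fold higher in lesion control and tested in this arm, 802 were called higher and 4 lower. Of 611 called at least 2-fold lower, 607 were called lower and 1 higher. A test of the difference between the arms, chosen after the data had been seen, called 1759 of 11967 genes with a larger gap minus rostral in lesion control (14.7%) and 1456 with a smaller one (12.2%). These counts were 1125 and 816 without gap replicate 1 of the NT-3 tube arm, and the second was 891 without gap replicate 1 of lesion control. RT1-CE10, a class I gene of which rat strains and stocks carry different forms, read 7.06 to 7.66 on the 6 lesion control arrays but 10.90 ± 0.48 in the stump and 11.45 ± 0.38 in the gap of the NT-3 tube arm (SD, n = 3). The arms thus differ in the level of this gene in both segments, and its part in the differences between arms was not tested.

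Matrix and class II lists were higher in the gap in both arms. Fibrillar collagens had medians of 1.88 in lesion control and 2.50 in the NT-3 tube arm, where 18 of 18 were called higher, and basement membrane genes 1.71 and 2.04, with 17 of 17. Class II genes had 1.88 and 1.71. Ccl21 was higher by 5.71 ± 0.36 in the NT-3 tube arm and Mmrn1 by 5.29 ± 0.37, and neither difference between arms passed the test (adjusted p = 0.186 and 0.261). Mmp3 was higher by 5.90 ± 0.39 in the NT-3 tube arm against 1.06 in lesion control (adjusted p of the difference between arms = 8.93e-09). Both lesion control means lay below 6.55, so this size and p-value are a description only.

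Neuronal, central myelin and muscle lists held many genes that differed between the arms. The neuronal median was -3.05 in the NT-3 tube arm against -0.92, and 18 of 19 genes were called with a smaller deficit in lesion control. Nefm differed by -2.79 in the NT-3 tube arm (difference between arms 2.24 ± 0.61, adjusted p = 0.00458). Gad1 averaged 10.32 ± 0.04 in the stump and 4.37 ± 0.76 in the gap there (SD, n = 3), a difference of -5.95. Central myelin had a median of -2.53, with 11 of 15 called for the difference between arms. Muscle genes had a median of 0.54 in the NT-3 tube arm, with 6 of the 21 tested in that arm called higher. Between the arms 15 of 23 were called with a larger difference in lesion control. Myl1 was higher by 2.55 ± 1.11 in the NT-3 tube arm, with gap arrays of 7.45 ± 1.68 (SD, n = 3), and Mb was not called (1.10 ± 0.66). Ependymal genes had medians of 0.81 and -0.64, with 5 of 7 called for the difference.

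**Figure D4:**
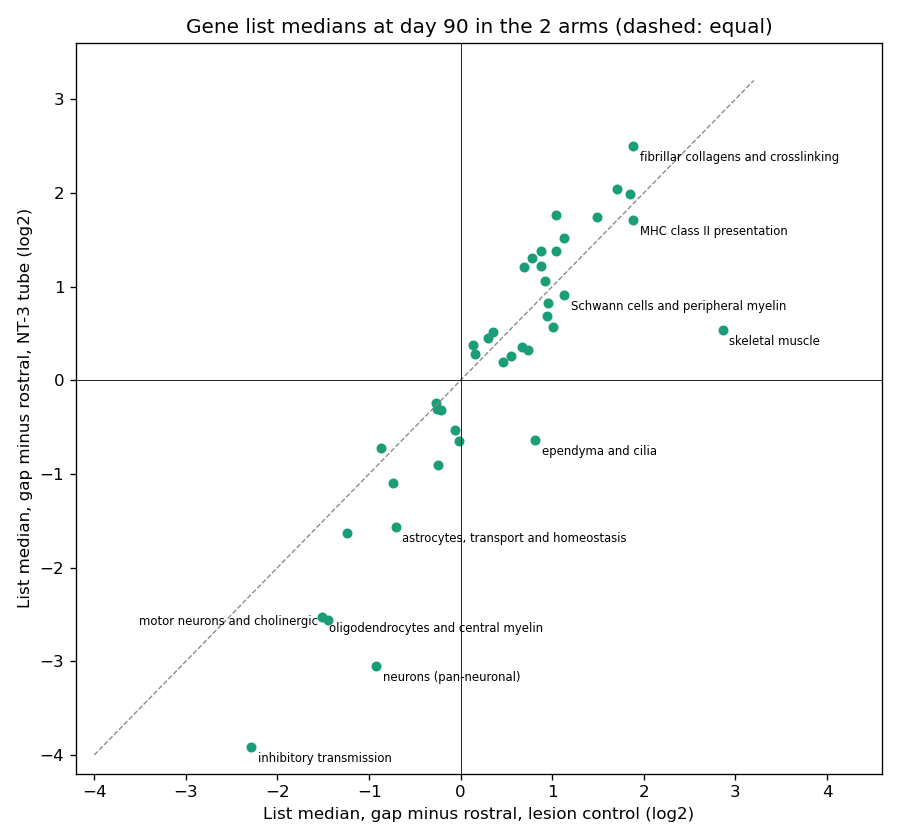
Median gap minus rostral difference (log2) of each of the 41 lists at day 90, lesion control on the horizontal axis and NT-3 tube on the vertical axis; the dashed line marks equal values and no error is drawn. Skeletal muscle (2.86 and 0.54) and ependyma (0.81 and -0.64) lie below the line, as do the neuronal lists, while fibrillar collagens (1.88 and 2.50) lie above it.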

How the data were processed

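RNA was hybridised to Affymetrix Rat Genome arrays, and the authors' deposited table holds log2 values of 31099 probe sets made with Affymetrix Expression Console and RMA, per the submitters' processing notes (versions not given in the sources used here). RMA compresses differences near background. Probe sets were named from the platform annotation: 20832 have 1 symbol, 436 several and 9831 none, and 20764 match the RefSeq gene table. For each of 14218 genes the brightest probe set, averaged across 167 cord arrays, was used. Genes were tested where a group mean reached the 40th percentile of values (6.55). limma 3.58.1 (lmFit, eBayes, R 4.3.3) fitted a mean per group over lesion control and normal arrays, or NT-3 tube and normal arrays. Data were simulated at these group sizes for gap minus rostral on day 90, over 14218 genes without the filter. Both segments were set to normal cord means with independent noise, and few genes were changed. Of 67 changes of 0.5 73.1% were called, and of 67 changes of 1 95.5%. Far more genes differed in the real comparison, so these rates do not give the sensitivity of the real test. The number of arrays limits the precision.

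Members and 41 lists (683 entries, 611 matched) were chosen with earlier results of these data known. Genes named singly are the 12 largest called changes each way among genes whose arrays do not overlap on day 90, for the border on day 90 and its change since day 3, the 5 largest called members of each list, other list members with their values, and RT1-CE10. Alternatives were no filter, quantile normalization, an eBayes trend, array weights, a replicate block, fits with fewer or more groups, averaged probe sets, requiring 2-fold, and omitting each array in turn. The sample titles do not say whether gap and rostral pools of the same replicate number share animals, and the main fits treat the pools as unpaired. Correlations of array deviations (same number -0.05, 0.01 and -0.19, other numbers -0.15 to 0.21) cannot settle this with 3 arrays a group. Figures used Python 3.11.15 with pandas 2.3.3, numpy 2.4.6 and matplotlib 3.10.9.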

Additional observations from a re-analysis of the deposited data

Results flagged for a closer look

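For the 24 genes below the gap minus rostral difference changed between day 3 and day 90 in lesion control by the test of the difference itself, with the change in log2 given as day 90 minus day 3. The 12 largest increases were those of the sulfotransferase Sult1a1 (3.88), Coch (3.83), Obp3 (3.65), Stmn2 (3.47), Igfbp3 (3.46), the integrin chain Itgb4 (3.46), Nefm (3.43), Islr (3.4), Pamr1 (3.38), Ppp1r1a (3.36), Nefl (3.29) and the retinol transporter receptor Stra6 (3.26). Coch, known from the inner ear and from meninges, read 10.32, 10.87 and 9.28 in the stump and 11.59, 11.95 and 11.87 in the gap on day 90, while on day 3 the means were 9.15 and 6.97. Itgb4, a laminin receptor subunit of Schwann cells and epithelia, had day 3 means of 8.18 in the stump and 7.21 in the gap, and day 90 gap values of 11.32, 11.17 and 11.20. The 12 largest decreases were those of the amino acid transporter Slc38a4 (-3.56), the lactate transporter Slc16a3 (-3.44), tenascin-N (Tnn, -3.39), Arg1 (-3.36), the collagenase Mmp13 (-3.28), Cxcl2 (-2.97), Angptl8 (-2.85), Apoc1 (-2.83), Htr2b (-2.83), the scavenger receptor Olr1 (-2.75), Cd8a (-2.68) and Adam8 (-2.59). Tnn averaged 11.93 in the day 3 gap and read 6.21, 5.97 and 5.78 in the day 90 gap. Slc16a3 averaged 11.28 in the day 3 gap and read 7.32, 7.63 and 7.41 on day 90, below all stump arrays of that day.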

How the results depend on the processing

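With a minimum of 2-fold the counts higher and lower became 906 and 611 for gap minus rostral on day 90, 1053 and 475 for its change since day 3, 1623 and 1348 for gap against normal cord, 665 and 243 for stump against normal cord, 1217 and 1307 in the NT-3 tube arm and 741 and 79 between arms, since the minimum removes small changes. Leaving out 1 array gave 1125 to 1868 and 816 to 1835 between arms, and the lowest counts came without gap replicate 1 of the NT-3 tube arm; without gap replicate 1 of lesion control the lower count was 891. Array weights gave 2569 lower between arms, and the cause was not tested. Every other count stayed within 1.5 times its main value. For gap minus rostral on day 90 leaving out 1 array gave 2889 to 3218 higher and 2814 to 3052 lower. The replicate block gave 3399 and 3120, so blocking by replicate number changed the counts little. A second quantile normalization gave 3038 and 3684 with a median of all genes of -0.034. For gap minus rostral on day 90, no gene named by the rule changed direction under any alternative run. The change since day 3 was not followed gene by gene through the alternatives. Losses of the call without 1 array ranged from 1 to 8 of 227 genes. Signals near background are compressed by RMA, so folds from low values are less certain.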

Other observations

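The stump arrays differed among themselves, and not in 1 direction. Rostral replicate 2 gave the highest rostral value for 17 of 18 fibrillar collagen genes, 15 of 17 basement membrane genes, 15 of 19 fibroblast genes and 6 of 6 lymphatic genes, and the lowest for 17 of 19 neuronal genes. Rostral replicate 1 was the highest for 16 of 23 skeletal muscle genes, for which replicate 2 was the lowest in 10 cases. Rostral replicate 3 was the highest for 6 of 7 ciliary and 5 of 6 adipocyte genes. Without rostral replicate 2, 3080 genes were higher in the gap and 3052 lower.

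Gap replicate 2 was the lowest gap array for 15 of 19 neuronal, 5 of 5 motor neuron and 9 of 9 sensory ganglion genes, and the highest for 10 of 14 meningeal and 6 of 7 ciliary genes. Without it 2889 genes were higher and 2850 lower.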
